A study of Mus musculus with 6 samples.

Results

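The C-type lectin receptors considered here were *Clec7a*, *Clec4e*, *Clec4d*, *Clec4n*, *Clec4a1*, *Clec4a2*, *Clec4a3*, *Clec5a*, *Clec10a* and *Mrc1*. They were taken from the count table by symbol, which gave 10 of its 19309 genes, each with 1 gene identifier. All 10 had enough counts to be tested, and the lowest mean count was that of *Clec10a*.

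C-type lectin receptors are transmembrane proteins of myeloid cells that bind glycans and glycolipids on fungi, bacteria and host cells. Some pass their signal through a tyrosine motif of their own or through the adaptor proteins FcRγ (*Fcer1g*) and DAP12 (*Tyrobp*) to the kinase Syk and the scaffold Card9, while others carry an inhibitory motif that recruits phosphatases or act mainly in the uptake of their ligands. In macrophages they are best known as sensors of β-glucan, mannan and mycobacterial cord factor, and *Mrc1*, the mannose receptor CD206, is a common marker of alternatively activated cells.

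Bulk RNA sequencing was used to compare bone marrow-derived macrophages of 3 sEH-/- mice, which lack the soluble epoxide hydrolase (sEH) encoded by *Ephx2*, with those of 3 wild-type mice, with 1 library per mouse. According to the methods, wild-type mice were C57BL/6N, littermates matched for age and strain were compared, most experiments used cells from females, and bone marrow was taken at 8 to 10 weeks of age. Monocytes of both genotypes were differentiated over 7 days with 15 ng/mL each of GM-CSF and M-CSF, given LPS (10 ng/mL) with IFN-γ (1 ng/mL) to obtain the M1 state, and then TGF-β1 (10 ng/mL) to obtain the M2c state that was sequenced. The M1 step lasted 24 h by the labels and 12 h by the methods, and TGF-β1 was present for 48 h by the labels and for 24 or 48 h by the methods. The deletion of the sEH-/- line was global and constitutive, made by a cross with mice expressing Cre from the ROSA26 locus, so that effects in the macrophage and in its precursors cannot be told apart. No untreated, M1 or M2a libraries were analysed here.

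The libraries held between 4400197 and 6096440 counts. Levels are given as CPM, which are counts relative to the TMM-scaled library size, and every log2 fold change gives sEH-/- relative to wild-type. A gene was called when the quasi-likelihood test of edgeR gave an adjusted p below 0.05 and its log2 fold change exceeded 0.585 in either direction. *Ephx2* was represented by 1 to 4 counts per sEH-/- library and 26 to 57 per wild-type library (edgeR adjusted p = 0.0042, log2 fold change −4.05, SE 0.43). All 8 macrophage markers were detected, with sums of 1985 to 2457 CPM (sEH-/-) and 1744 to 2204 CPM (wild-type), with a log2 fold change above 0 in each of the 8 and 0 calls (edgeR, DESeq2 and limma-voom each called 0, and 3 were higher at an unadjusted p below 0.05 in edgeR). *Cd14* had an edgeR adjusted p of 0.029, but its log2 fold change of 0.50 was under the threshold. *Cd14* and *Fcgr1* (0.45, edgeR adjusted p = 0.065) were higher in sEH-/- libraries without overlap, and the other macrophage markers overlapped. Of the macrophage markers, *Cd68* and *Lyz2* carried 0.886 and 0.881 counts per exonic base, and *Lyz2* had 1153 to 1173 counts per library. The removal of duplicate reads may have limited such counts, and these values are not corrected for it. Of the neutrophil markers, 8 of 11 were in the table and they summed to 284 to 360 CPM (sEH-/-) and 266 to 317 CPM (wild-type), mostly through *Mmp8*, which overlapped. *S100a8* was higher in sEH-/- libraries without overlap but was not called, with 26.9 ± 2.86 against 18.5 ± 1.49 CPM (SD, n = 3 mice per genotype, log2 fold change 0.54, edgeR adjusted p = 0.057). *Ngp*, *Camp* and *Elane* were also higher without overlap, at 10 counts or fewer per library, too few to be tested. Of all tested genes, 11.8% were higher without overlap. At an unadjusted p below 0.05 in edgeR, 11.1% were higher and 12.2% lower. *S100a9* (0 to 3 counts), *Ltf* (0 to 6) and *Cxcr2* (0 to 1) overlapped. Dendritic cell markers (7 of 9 in the table) summed to 30.5 to 62.1 CPM (sEH-/-) and 47.7 to 64.9 CPM (wild-type), with *Cd209a* at 0 in every library. All 4 that could be tested had a log2 fold change below 0 (median −0.57), 0 were called by edgeR, DESeq2 or limma-voom, and *Zbtb46* (−0.98) and *Batf3* (−0.82) were lower at an unadjusted p below 0.05 in edgeR. Stromal markers (5 of 5 in the table) summed to 6.49 to 17.2 CPM and 4.18 to 59.9 CPM, the highest being wild-type replicate 2, with 1 of 4 tested lower at an unadjusted p below 0.05 and 0 called by edgeR, DESeq2 or limma-voom. Of 8 lymphocyte and 6 erythroid markers, 0 were in the table, so these cell types could not be assessed by them. The part of these lists in the differences described here was not tested.

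Relative to the length of their exons, the 10 receptors covered a wide range, and this order was similar in the genotypes. In wild-type macrophages *Clec4n* had 115 CPM per kb, *Clec4d* 99.6 and *Clec7a* 98.8, *Clec4n* being the highest in each of the 3 libraries. Its range overlapped that of *Clec4d* and not that of *Clec7a*, and the ranges of *Clec4d* and *Clec7a* overlapped. *Clec4n*, *Clec4d* and *Clec7a* carried 0.585, 0.555 and 0.534 counts per exonic base, more than the other receptors. The removal of duplicate reads may have limited their counts, and the levels given here are not corrected for it. Their distance from the other receptors may thus be understated. *Mrc1* followed with 26.3 CPM per kb, *Clec4e* with 21.6, *Clec4a2* with 18.3, *Clec5a* and *Clec4a3* with 13.4 each and *Clec4a1* with 9.03. *Clec10a*, the galactose-type lectin MGL1, was the least abundant with 2.82 CPM per kb. In wild-type libraries *Clec4a2*, *Clec5a* and *Clec4a3* each overlapped the next gene in this order, while *Mrc1*, *Clec4e* and *Clec4a2* were separate from one another. In sEH-/- macrophages *Clec4d*, *Clec4n* and *Clec7a* again led, at 115, 109 and 108 CPM per kb. The next 6 genes, from *Mrc1* (29.4 CPM per kb) through *Clec4e* (28.9), *Clec4a2* (28.1), *Clec5a* (26.8) and *Clec4a3* (21.7) to *Clec4a1* (19.5), formed a series in which every neighbor overlapped, and *Clec10a* stayed apart below them at 3.55 CPM per kb.

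In sEH-/- macrophages *Clec5a* and *Clec4a2* were called higher, with log2 fold changes of 1.01 and 0.62, respectively, and 0 of the 10 receptors were called lower. These 2 calls are 20.0% of the receptors, where 1.51% of all 13785 tested genes were called higher, 1.1% were called lower and 2.61% in either direction. DESeq2 called 3 receptors higher (with *Clec4a1*) and 0 lower, limma-voom called 2 and 0, and at an unadjusted p below 0.05 edgeR gave 5 higher and 0 lower, where 11.1% of all tested genes were higher and 12.2% lower at that p. With 1 library left out the number called ranged from 0, without wild-type replicate 2 or 3, to 4, without sEH-/- replicate 1 or wild-type replicate 1. *Clec4e* also had an adjusted p below 0.05, but its change was under the fold change threshold, and 3 receptors thus passed by adjusted p alone, as did 4.01% of all tested genes. For *Clec4a1*, *Clec4a2*, *Clec4e* and *Clec5a* all 3 sEH-/- libraries lay above all 3 wild-type libraries, and 11.8% of all tested genes showed this. The median log2 fold change of the 10 genes was 0.38, with 9 above 0 and 1 below, and that of all tested genes was −0.00092, with 49.8% above 0. *Mrc1*, *Clec7a*, *Clec4d*, *Clec4n*, *Clec10a* and *Clec4a3* overlapped between the genotypes and were not called. Summed over the 10 genes, the level was 1076, 1253 and 1305 CPM in the sEH-/- and 1103, 950.0 and 957 CPM in the wild-type libraries, which overlapped. In these bulk samples, more cells with a receptor and more of its RNA per cell cannot be told apart.

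**Figure D1:**
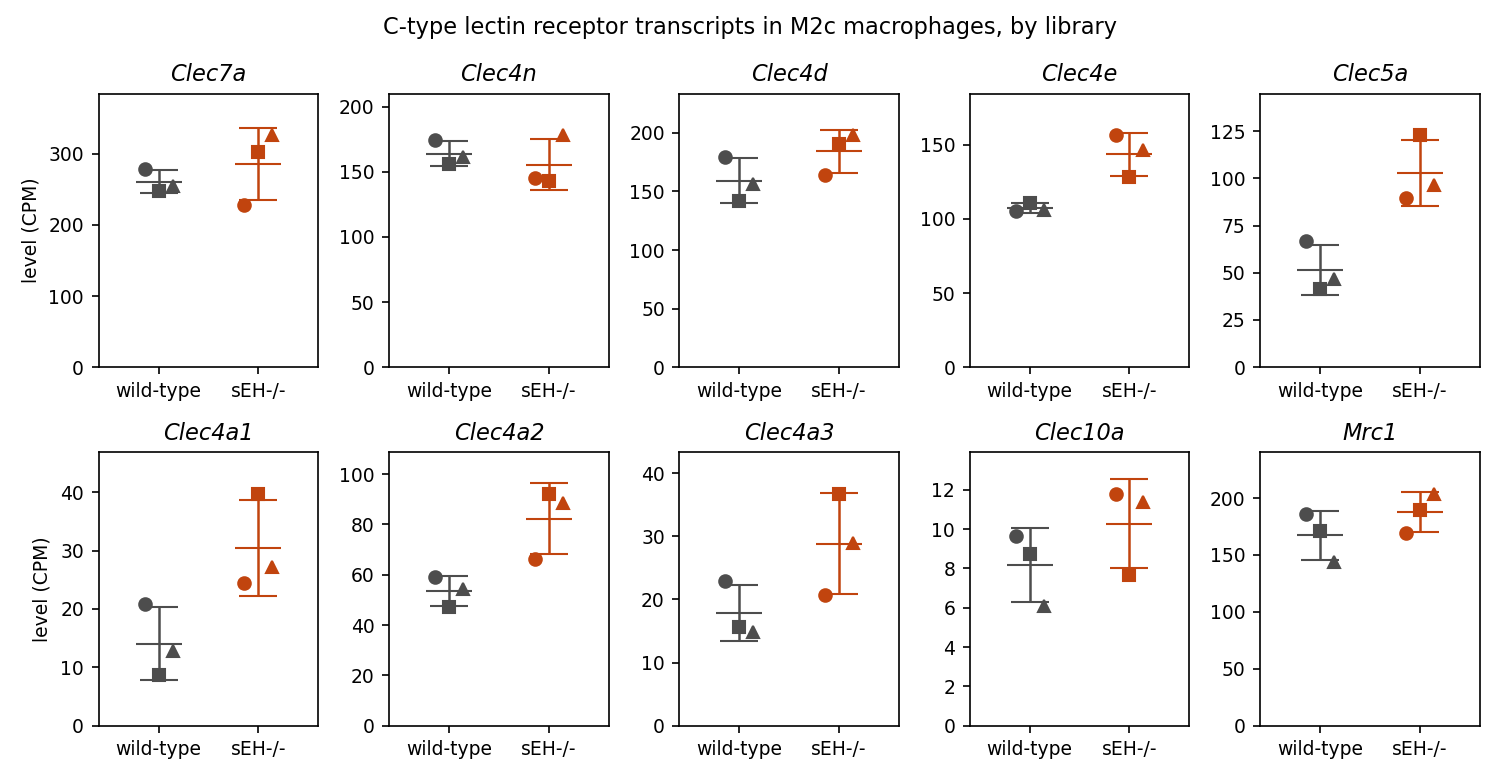
Level of each receptor in CPM (linear axis from 0) in the 3 wild-type (gray) and 3 sEH-/- (orange) libraries, with circles, squares and triangles for replicates 1, 2 and 3 and bars for the mean and SD. The sEH-/- points of Clec5a (89.6 to 123 CPM) lie above its wild-type points (41.4 to 66.6 CPM), while those of Mrc1, Clec7a and Clec4n overlap.

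**Figure D2:**
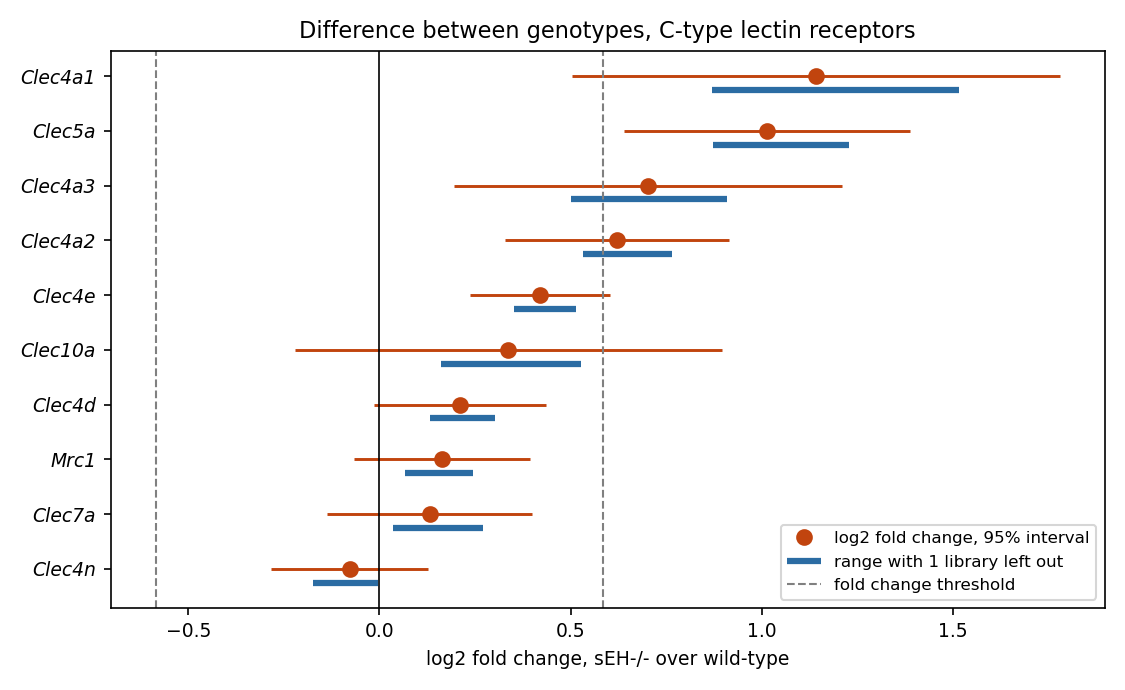
Log2 fold change, sEH-/- over wild-type, of the 10 receptors (orange points) with its 95% interval (orange lines), the range of values with 1 library left out (blue bars) and the threshold of 0.585 in either direction (dashed). Clec4a1 has the highest value (1.14) with the widest interval (0.50 to 1.78), and the interval of Clec4n (−0.28 to 0.13) includes 0.

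The sequences just ahead of the transcription start are shown for the 4 receptors whose libraries did not overlap between the genotypes, since these are the genes the comparison turns on. They are the 250 bases before the RefSeq start on GRCm38.p6, 5′ to 3′ on the strand of the gene, with the letters GAGGAA, the core bound by PU.1 and other Ets factors, in capitals where they occur on either strand (TTCCTC on the printed one). PU.1 is the factor that directs development of the myeloid lineage. *Clec5a* is on the minus strand (chr6:40585806-40586055), *Clec4e* on the minus strand (chr6:123289872-123290121), *Clec4a1* on the plus strand (chr6:122921598-122921847) and *Clec4a2* on the plus strand (chr6:123122440-123122689). For *Clec4a2* the RefSeq start lies inside the gene as the deposited annotation draws it. The last bases of the *Clec5a* window also lie inside its deposited gene, which spans 40574894 to 40585821.
Clec5a: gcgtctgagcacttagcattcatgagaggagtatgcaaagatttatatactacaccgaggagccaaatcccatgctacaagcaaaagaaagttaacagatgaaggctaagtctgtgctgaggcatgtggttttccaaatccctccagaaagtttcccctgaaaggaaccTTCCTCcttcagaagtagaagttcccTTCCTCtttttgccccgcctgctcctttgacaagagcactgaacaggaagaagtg
Clec4e: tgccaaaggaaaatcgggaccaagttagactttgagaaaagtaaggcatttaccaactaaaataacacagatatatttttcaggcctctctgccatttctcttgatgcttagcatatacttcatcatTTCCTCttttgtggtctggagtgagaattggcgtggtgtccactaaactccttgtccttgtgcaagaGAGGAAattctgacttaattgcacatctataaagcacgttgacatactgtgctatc
Clec4a1: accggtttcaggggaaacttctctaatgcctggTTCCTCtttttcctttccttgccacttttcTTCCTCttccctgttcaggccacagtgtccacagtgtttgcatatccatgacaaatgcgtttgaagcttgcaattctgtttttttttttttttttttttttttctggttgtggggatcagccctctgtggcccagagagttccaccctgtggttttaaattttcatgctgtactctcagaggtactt
Clec4a2: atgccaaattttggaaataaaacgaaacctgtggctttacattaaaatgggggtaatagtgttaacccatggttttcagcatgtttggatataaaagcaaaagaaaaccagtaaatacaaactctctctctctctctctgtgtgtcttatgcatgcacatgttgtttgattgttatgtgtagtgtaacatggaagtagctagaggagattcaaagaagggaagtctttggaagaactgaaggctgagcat
The table of promoters held 8 of the 10 receptors, without *Clec4n* and *Clec10a*. GAGGAA was found in 6 of the 8, namely *Mrc1*, *Clec5a*, *Clec4a1*, *Clec4d*, *Clec4e* and *Clec7a*, and in 23.3% of 32841 promoter sequences of the same length. *Clec4a2* and *Clec4a3* did not hold these letters in this window. In *Clec5a* the matches ended 76 and 50 bases before the start, and in *Clec4e* 118 and 51 bases before it. The C/EBP letters TTGCNNAA occurred in *Clec4e* (9.57% of all promoters), and the Smad letters CAGAC in *Clec5a* and *Clec4e* (42.2%). The AP-1 letters TGANTCA (6.75%), the IRF motif, a GAAA repeat with 2 bases between (2.98%), and the NF-κB consensus (3.90%) were found in 0 of the 8. All motifs were searched on both strands, and 0 matches of different motifs overlapped. These matches describe letters and show no binding.

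*Clec5a* (ENSMUSG00000029915, minus strand of mm10 chromosome 6, 40574894 to 40585821) encodes MDL-1, a receptor that signals through DAP12 and is known for the response of myeloid cells to dengue virus. The sEH-/- libraries held 524, 609 and 417 *Clec5a* counts, against 303, 255 and 260 in wild-type. Scaled to library size they were 89.6, 123 and 96.7 CPM against 66.6, 41.4 and 46.6 CPM. The lowest sEH-/- library was above the highest wild-type library. Means (± SD, n = 3 mice per genotype) were 103 ± 17.5 and 51.5 ± 13.3 CPM, and the log2 fold change of 1.01 (SE 0.17, 95% interval 0.64 to 1.39) was called (edgeR adjusted p = 0.018). The value lay between 0.87 and 1.23 with each library left out, but the call was lost without wild-type replicate 2 (0.87, adjusted p = 0.086) and without wild-type replicate 3 (0.95, adjusted p = 0.12). The same fits lowered the number of calls over all genes from 360 to 25 and 6.

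The next 3 genes belong to the Dcir family, named after the dendritic cell immunoreceptor. *Clec4a2* (ENSMUSG00000030148, plus strand of chromosome 6, 123106428 to 123143999) encodes Dcir itself, an inhibitory receptor whose cytoplasmic tyrosine motif recruits the phosphatases *Ptpn6* and *Ptpn11*. Its counts were 387, 457 and 382 in sEH-/- cells against 269, 290 and 303 in wild-type cells, or 66.2, 92.2 and 88.6 CPM against 59.1, 47.1 and 54.3 CPM. The groups did not overlap, although sEH-/- replicate 1 was close to wild-type replicate 1. With means of 82.3 ± 14.1 and 53.5 ± 6.08 CPM (SD, n = 3 mice per genotype), the log2 fold change was 0.62 (SE 0.13, 95% interval 0.33 to 0.92, adjusted p = 0.034 from edgeR), just past the threshold. This call depended on single libraries. It was lost without sEH-/- replicate 2 (0.55, adjusted p = 0.11), sEH-/- replicate 3 (0.58, adjusted p = 0.052), wild-type replicate 2 (0.53, adjusted p = 0.17) and wild-type replicate 3 (0.63, adjusted p = 0.14), with the replicate block (0.62, adjusted p = 0.052), and when the logarithm of the total count entered the model as a covariate (0.53, adjusted p = 0.040, under the fold change threshold). Because *Clec4a2* shares sequence with *Clec4a4*, as given with the chromosome 6 run, some of its reads may have been dropped as multi-mapping, and its value is uncertain to that extent.

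*Clec4a1* (ENSMUSG00000049037, plus strand of chromosome 6, 122921848 to 122934619), which the deposited annotation also names Dcir4, had counts of 143, 197 and 117 in sEH-/- cells, compared with 95, 53 and 71 in wild-type cells. In CPM these were 24.5, 39.8 and 27.1 against 20.9, 8.6 and 12.7. The groups did not overlap, and the spread within each was wide for its level. The log2 fold change of 1.14 (SE 0.29, 95% interval 0.50 to 1.78) missed the call by its edgeR adjusted p of 0.054. *Clec4a1* was called in 6 of 16 alternatives, among them DESeq2 (1.14, adjusted p = 0.0021), no filter on low counts (adjusted p = 0.026) and the fits without sEH-/- replicate 1 (1.29, adjusted p = 0.039) or wild-type replicate 1 (1.52, adjusted p = 0.015), and its adjusted p ranged up to 0.21.

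*Clec4a3* (ENSMUSG00000043832, plus strand of chromosome 6, 122952515 to 122969875), or Dcir3, was counted 121, 182 and 125 times in sEH-/- cells, and 104, 96 and 83 times in wild-type cells. The corresponding 20.7, 36.7 and 29.0 CPM and 22.9, 15.6 and 14.9 CPM overlapped, since sEH-/- replicate 1 was below wild-type replicate 1. Its log2 fold change of 0.70 (SE 0.23, 95% interval 0.20 to 1.21) was not called (adjusted p = 0.10 from edgeR). Without either of these libraries it was called, with 0.91 (adjusted p = 0.034) without sEH-/- replicate 1 and 0.91 (adjusted p = 0.048) without wild-type replicate 1. Summed over the 3 Dcir genes, the sEH-/- levels were 111, 169 and 145 CPM against 103, 71.2 and 81.9 CPM, without overlap, a ratio of the means of 1.66.

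Mincle, MCL and Dectin-2 are encoded next to the Dcir genes and signal through FcRγ. *Clec4e* (ENSMUSG00000030142, minus strand of chromosome 6, 123281789 to 123289870) encodes Mincle, the receptor for mycobacterial cord factor. The *Clec4e* counts of 914, 634 and 632 (sEH-/-) and of 478, 684 and 592 (wild-type) were after scaling 156, 128 and 147 CPM against 105, 111 and 106 CPM. The raw counts overlapped and the scaled levels did not, wild-type libraries being close to each other. At means of 144 ± 14.4 and 107 ± 3.15 CPM (SD, n = 3 mice per genotype), the log2 fold change was 0.42 (SE 0.083, 95% interval 0.24 to 0.60). The adjusted p of 0.029 from edgeR was below 0.05. Of all tested genes, 2.39% had both an adjusted p below 0.05 and a value above 0. The change of *Clec4e* was below 0.585, however, and in the alternatives this gene was called in 0 of 16. With 1 library left out, its adjusted p ranged from 0.022 to 0.14.

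*Clec4d* (ENSMUSG00000030144, plus strand of chromosome 6, 123262111 to 123275265) encodes MCL, the partner with which Mincle reaches the cell surface. It was counted 957, 946 and 854 times in sEH-/- cells against 817, 876 and 871 times in wild-type cells, and the levels of 164, 191 and 198 CPM overlapped with 180, 142 and 156 CPM. The log2 fold change was 0.21 (SE 0.10, 95% interval −0.013 to 0.43, adjusted p = 0.24 from edgeR). *Clec4n* (ENSMUSG00000023349, plus strand of chromosome 6, 123229843 to 123247021), encoding Dectin-2, the receptor for fungal mannan, had 849, 709 and 768 against 793, 961 and 900 counts. In CPM the 145, 143 and 178 of sEH-/- spanned the 174, 156 and 161 of wild-type libraries. It was the only one of the 10 receptors with a log2 fold change below 0 (−0.077, SE 0.093, 95% interval −0.28 to 0.13, adjusted p = 0.67 from edgeR). No difference was detectable in either gene. Summed over *Clec4e*, *Clec4d* and *Clec4n*, the sEH-/- levels were 465, 462 and 523 CPM against 459, 409 and 424 CPM, which did not overlap but came within a few CPM of each other.

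These 6 genes lie in a run of 368 kb on chromosome 6, in which 9 genes were counted. The remaining 3 were hardly detected, with at most 5 counts in a library of *Clec4a4* and of *Clec4b1* and at most 2 of the pseudogene *Gm5883*. In order along the chromosome, the log2 fold changes were 1.14 (*Clec4a1*), 0.70 (*Clec4a3*), 0.62 (*Clec4a2*), −0.077 (*Clec4n*), 0.21 (*Clec4d*) and 0.42 (*Clec4e*). The 3 values nearest the *Clec4a1* end were thus the highest of the run, and the SE of each (0.29, 0.23 and 0.13) exceeded those of the other 3 genes (0.093, 0.10 and 0.083). *Clec7a* lies 6.17 Mb farther along the same chromosome. Since related genes can share reads, stretches of 50 bases of each transcript were compared with the transcripts of all other genes. Of *Clec4a2*, 6.69% of stretches occurred in another gene, mostly *Clec4a4*, and of *Clec10a* 9.02%, mostly *Mgl2*. *Clec4n* shared 0.686%, and each of the other 7 receptors shared 0.

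**Figure D3:**
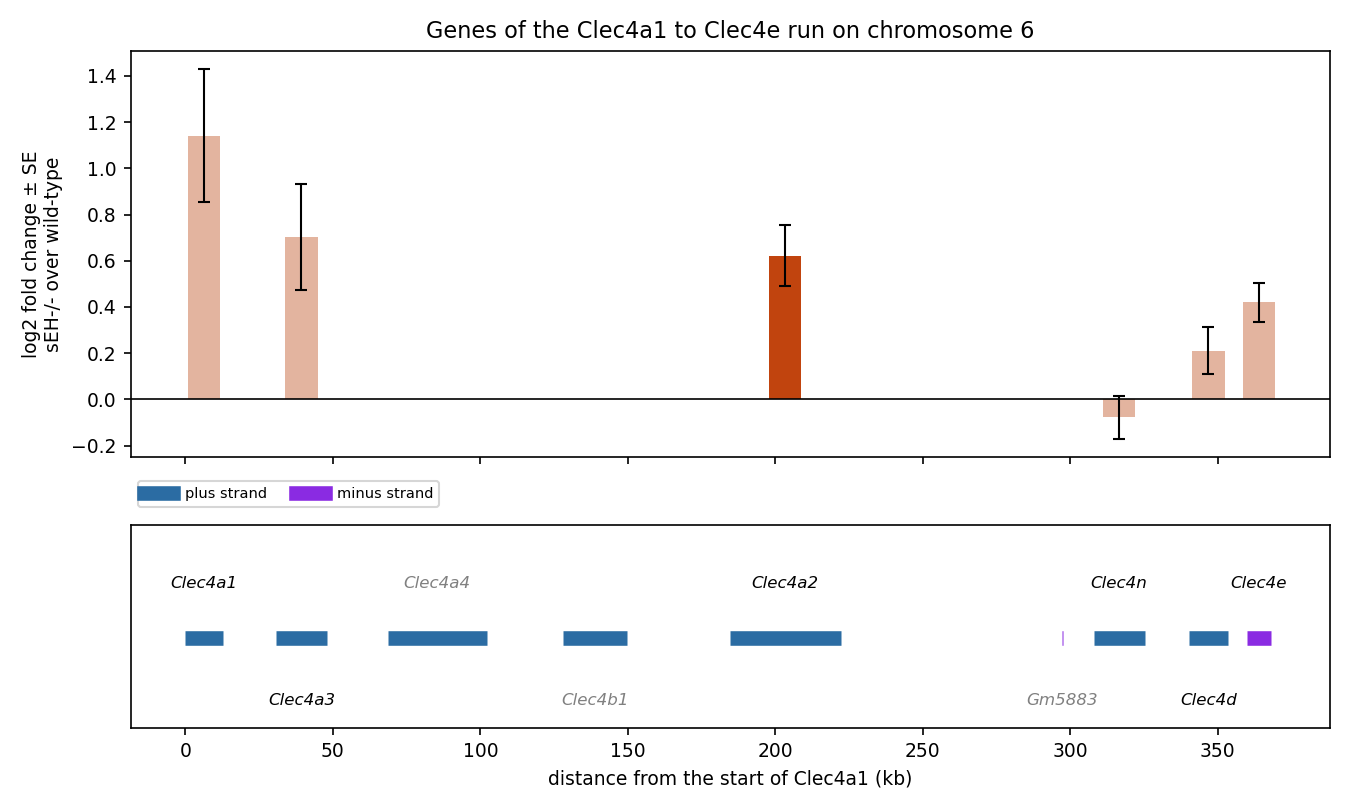
Upper panel, log2 fold change ± SE (sEH-/- over wild-type) of the tested genes in the chromosome 6 run, with the darker bar for the called gene. Lower panel, position of the 9 counted genes by distance from the start of Clec4a1 in kb, with plus-strand genes in blue, minus-strand genes in purple and genes not tested in gray type. The bars fall from 1.14 at Clec4a1 to −0.077 at Clec4n and reach 0.42 at Clec4e.

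*Clec7a* (ENSMUSG00000079293, minus strand of chromosome 6, 129461591 to 129472779) encodes Dectin-1, the β-glucan receptor that takes part in zymosan uptake and carries its own Syk-binding tyrosine motif. The deposited annotation lists the gene as a polymorphic pseudogene. The 1335, 1500 and 1406 counts of sEH-/- cells compare with 1267, 1530 and 1421 of wild-type cells. In CPM they were 228, 303 and 326 against 279, 248 and 255, so that the sEH-/- libraries lay on both sides of the wild-type libraries. The 95% interval of its log2 fold change was −0.14 to 0.40, and with 1 library left out the value ranged from 0.036 to 0.27. Differences above 1.5-fold lie outside this interval.

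*Mrc1* (ENSMUSG00000026712, plus strand of mm10 chromosome 2, 14229392 to 14332057) had counts of 988, 939 and 879 in sEH-/- cells, set against 848, 1056 and 803 in wild-type cells. The levels of 169, 189 and 204 CPM overlapped with 186, 171 and 144 CPM, and the lowest value was that of wild-type replicate 3. The 95% interval of the log2 fold change (−0.066 to 0.39) included 0 and lay below the threshold of 0.585. With 1 library left out the value ranged from 0.066 to 0.25, and over all alternatives the lowest adjusted p was 0.18. *Clec10a* (ENSMUSG00000000318, plus strand of chromosome 11, 70156197 to 70170834) had 69, 38 and 49 against 44, 54 and 34 counts. At 11.8, 7.7 and 11.4 CPM against 9.7, 8.8 and 6.1 CPM the groups overlapped. Its log2 fold change of 0.34 (SE 0.25, 95% interval −0.22 to 0.90, adjusted p = 0.46 from edgeR) had an interval that held both 0 and values past the threshold.

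Duplicate reads had been removed by the authors, which can limit the counts of a short, abundant transcript. *Clec4n*, *Clec4d* and *Clec7a* carried 0.585, 0.555 and 0.534 counts per exonic base, and the other 7 receptors between 0.0166 and 0.144. Between the libraries with the most and the fewest counts of a gene, *Clec4d* differed by 1.17-fold and *Clec7a* by 1.21-fold, where the library totals differed by 1.39-fold. *Clec4n*, however, differed by 1.36-fold, close to the totals, and *Mrc1*, with fewer counts per base, by 1.32-fold. After a correction for this ceiling, the log2 fold change was −0.18 for *Clec4n* (adjusted p = 0.27 from edgeR), 0.27 for *Clec4d* (adjusted p = 0.12) and 0.15 for *Clec7a* (adjusted p = 0.54). *Clec5a* (1.07, adjusted p = 0.018) and *Clec4a2* (0.66, adjusted p = 0.033) stayed called.

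As a measure that needs no library scaling, and chosen after the values were seen, the counts of each receptor were divided by the *Mrc1* counts of the same library. *Clec5a* had 0.530, 0.649 and 0.474 counts per *Mrc1* count in sEH-/- cells against 0.357, 0.241 and 0.324 in wild-type cells, and *Clec4a2* 0.392, 0.487 and 0.435 against 0.317, 0.275 and 0.377. *Clec4a1* had 0.145, 0.210 and 0.133 against 0.112, 0.0502 and 0.0884. For these 3 genes the sEH-/- ratios were higher without overlap. *Clec4n* was lower without overlap, with 0.859, 0.755 and 0.874 counts per *Mrc1* count against 0.935, 0.910 and 1.12, and the other 5 ratios overlapped, that of *Clec4e* included. Each of the 4 differences without overlap had a two-sided p of 0.1 in an exact permutation test, the smallest that 3 against 3 libraries can give, and 0.225 after adjustment over the 9 ratios. Any ratio without overlap gets this p, so the test adds nothing to the lack of overlap. The share of all genes whose ratio to *Mrc1* did not overlap was not computed.

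Genes that act with these receptors were examined as lists. Of all tested genes, edgeR called 1.51% higher and 1.1% lower. At an unadjusted p below 0.05 in edgeR, 11.1% were higher and 12.2% lower. Among 21 adaptors and genes of the Syk-Card9 route, edgeR, DESeq2 and limma-voom each called 0 in either direction (5 higher and 1 lower at an unadjusted p below 0.05 in edgeR), and the median log2 fold change was 0.11, with 16 above 0 and 5 below. *Fcer1g*, the FcRγ adaptor, had means of 102 ± 14.6 CPM in sEH-/- cells against 93.6 ± 11.1 CPM (SD, n = 3 mice per genotype, as for the next genes). *Tyrobp*, the DAP12 adaptor of *Clec5a*, had 99.6 ± 13.6 and 89.0 ± 10.6 CPM. *Syk* had 571 ± 39.5 and 581 ± 32.8 CPM, and *Card9* 84.1 ± 11.3 and 75.7 ± 3.94 CPM. All 4 overlapped between the genotypes, with 95% intervals of the log2 fold change of −0.13 to 0.38, −0.090 to 0.41, −0.23 to 0.17 and −0.070 to 0.37. *Fcer1g* and *Tyrobp* carried 0.577 and 0.729 counts per exonic base. They had 480 to 532 and 460 to 508 counts per library, where library totals differed by 1.39-fold. Duplicate removal may thus have limited the counts of both adaptors, and their values given here are not corrected for it. Named after its value was seen, *Plcg2*, the phospholipase downstream of Syk, had a log2 fold change of 0.39 with an adjusted p of 0.026 (edgeR), under the fold change threshold. Of 6 phosphatases and ubiquitin ligases that restrain such receptors, each of these tools called 0, with 1 higher at an unadjusted p below 0.05 (median log2 fold change 0.089).

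Of 18 cytokines and other genes induced through Syk and Card9, 14 could be tested, and 7 were called higher and 0 lower in sEH-/- macrophages by edgeR (DESeq2 called 8 and 0, limma-voom 7 and 0, and 9 and 0 passed an unadjusted p of 0.05; median log2 fold change 1.12). Over all tested genes the shares were 1.51% called higher and 1.1% lower by edgeR. At an unadjusted p below 0.05 they were 11.1% higher and 12.2% lower. The cytokines and other genes of this list are also induced by Toll-like receptors. As the study named *Il1b* and *Nlrp3* among them from the same libraries, their direction is not independent evidence. The 5 called genes with the most counts were *Nlrp3* (0.97), *Nfkbiz* (1.28), *Il1b* (2.31), *Cxcl2* (2.36) and *Ccl3* (1.29). All 5 lost their call without wild-type replicate 3, and *Nfkbiz*, *Cxcl2* and *Ccl3* also without wild-type replicate 2, with adjusted p values from edgeR of up to 0.12. Of 17 genes of alternative activation, 14 could be tested, with a median of 0.11. EdgeR and DESeq2 each called 1 higher and 1 lower, and limma-voom called 1 higher and 0 lower, so that *Pparg* was not called there, with 2 higher and 1 lower at an unadjusted p below 0.05 in edgeR. The chemokine *Ccl22* was called higher (1.15, SE 0.24, adjusted p = 0.034 from edgeR) and the nuclear receptor *Pparg* lower (−0.77, SE 0.19, adjusted p = 0.048), and each was called in 2 of 6 fits with a library left out, those without sEH-/- replicate 3 and without wild-type replicate 1.

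**Figure D4:**
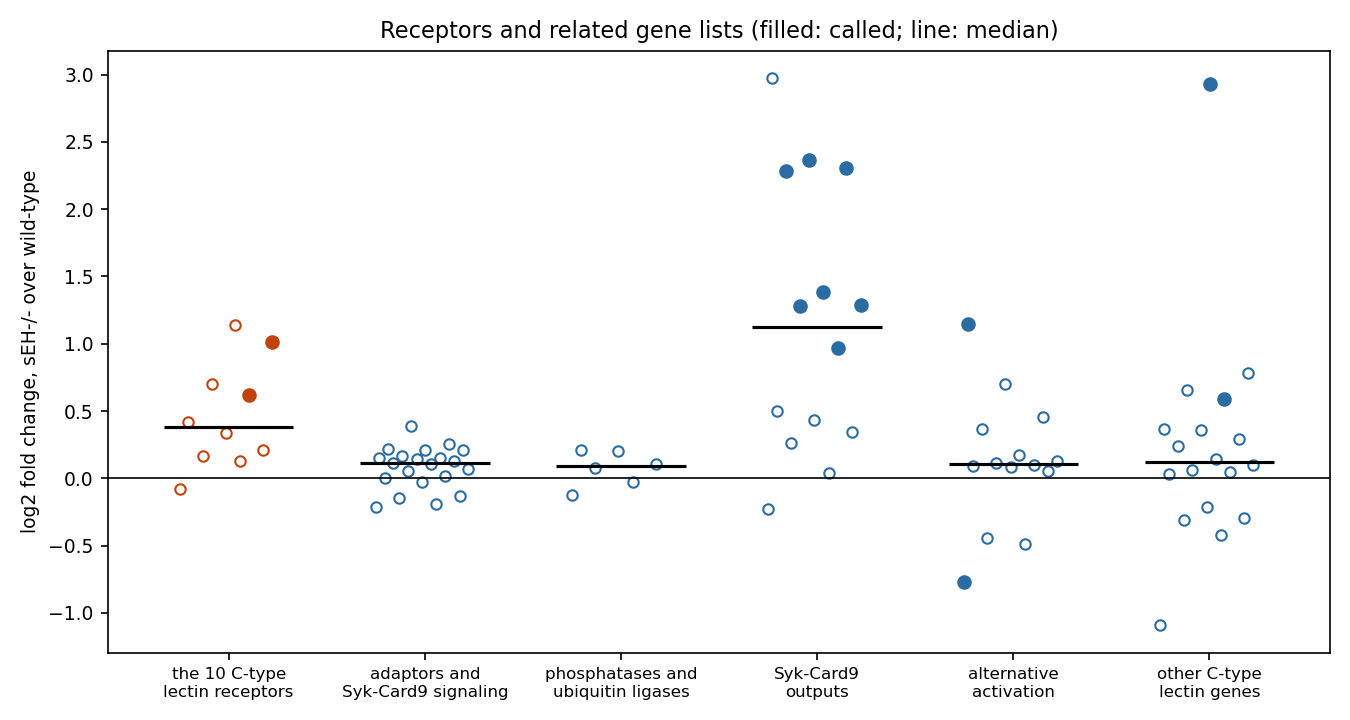
Log2 fold change, sEH-/- over wild-type, of the tested genes among the 10 receptors (orange) and 5 lists of related genes (blue), with filled points for called genes and a line for the median of each list. The medians are 0.38 for the receptors, 0.11 for adaptors and signaling genes, 0.089 for phosphatases and ubiquitin ligases, 1.12 for outputs, 0.11 for alternative activation and 0.12 for other C-type lectin genes.

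Of 45 other genes with a C-type lectin domain, 30 were in the table and 18 had enough counts. *Klrk1* and *Olr1* were called higher and 0 genes lower by edgeR (DESeq2 called 3 and 0, limma-voom 2 and 0, and 4 higher and 2 lower passed an unadjusted p of 0.05; median log2 fold change 0.12, with 13 above 0). Over all tested genes, edgeR called 1.51% higher and 1.1% lower, and 11.1% and 12.2% passed an unadjusted p of 0.05. *Klrk1*, encoding the lymphoid receptor NKG2D, had 17, 18 and 10 counts in sEH-/- cells against 2, 3 and 1 in wild-type cells (edgeR adjusted p = 0.016, log2 fold change 2.93, SE 0.46). *Olr1*, the receptor for oxidized LDL, had means of 173 ± 19.1 and 115 ± 5.75 CPM (SD, n = 3 mice per genotype) and a log2 fold change of 0.59 (edgeR adjusted p = 0.014), at the threshold. *Klrk1* lost its call without wild-type replicate 2 or 3 and *Olr1* without these libraries or sEH-/- replicate 3. *Mgl2*, named here because it shares sequence with *Clec10a*, had 243, 71 and 114 counts in sEH-/- cells against 104, 139 and 106 in wild-type cells. The groups overlapped.

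The profiles most like those of the called receptors were sought among 10276 other genes averaging at least 50 counts, by the root mean square difference of centered log2 CPM over the 6 libraries. For *Clec4a2* these were *C1ra* (0.057), a complement protease, *Lpcat2* (0.061), an enzyme of phospholipid remodeling, and *Rgs2* (0.074), a regulator of G protein signaling. For *Clec5a* they were *Sirpb1b* (0.063), a member of the signal regulatory protein family, *Sla* (0.092), a Src-like adaptor, and *Zfp658* (0.099), a zinc finger gene. All 6 were called higher, and each lost its call when either wild-type replicate 2 or wild-type replicate 3 was left out, as *Clec5a* and *Clec4a2* did. Leaving out sEH-/- replicate 2 also ended the calls of *C1ra*, *Lpcat2*, *Rgs2*, *Sirpb1b* and *Sla*, and leaving out sEH-/- replicate 3 those of *C1ra* and *Rgs2*. In both of these fits *Clec5a* was called and *Clec4a2* was not. *Sirpb1b* had means of 38.4 ± 7.98 and 19.1 ± 4.78 CPM (SD, n = 3 mice per genotype). The likeness is a description over these 6 libraries. Because the 6 genes were chosen by it, their calls follow largely from that choice. Leaving out wild-type replicate 2 or 3 also lowered the number of calls over all genes, from 360 to 25 and 6, respectively. The loss of the calls in these fits is thus not particular to the 6 genes.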

How the data were processed

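RNA-seq libraries of M2c-polarized macrophages were analysed, 1 per mouse, from 3 mice of each genotype. The authors deposited raw counts for 19309 genes, not normalized. Per the labels, reads were processed with Trimmomatic 0.39, STAR 2.7.7a, Picard 2.21.7 and featureCounts 1.6.5 on mm10; the methods name other versions of the last 3 tools. Duplicate, multi-mapping, ribosomal and mitochondrial reads were removed and exonic reads were counted by strand, without reads over several genes. Columns were matched to samples by name, and 0 columns of values per sample were left unused.

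Genotypes were compared with edgeR 4.0.16 in R 4.3.3 (TMM, glmQLFit and glmQLFTest, no covariate) over the 13785 genes with a mean above 5 counts, with Benjamini-Hochberg adjustment over all of them. Standard errors (SE) were derived from the fold change and its F statistic. Libraries held 4400197 to 6096440 counts. The fits were also run on simulated counts. Alternatives were DESeq2 1.42.0, limma 3.58.1 (voom), other scalings, filters and thresholds, thinning, a replicate block, a ceiling correction for duplicate removal (−L·log(1 − c/L), counts c, exonic length L from GENCODE M21, found for 19286 genes), the log library total as a covariate, and each library left out. Named genes were all 10 receptors, *Ephx2*, at most 5 called genes per list and direction, *Fcer1g*, *Tyrobp*, *Syk*, *Card9*, the genes counted in the chromosome 6 run and the 3 most similar profiles per called receptor. The receptors and lists were chosen with earlier results of these data known. Promoter sequences came from RefSeq (GRCm38.p6).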

Additional observations from a re-analysis of the deposited data

How the results depend on the processing

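The main test called 2 receptors and 360 genes. The number of receptors called was 1 (*Clec5a*) with the replicate block and 1 (*Clec5a*) with the log library total as a covariate, and 0 when glmTreat tested against the fold change threshold. With each library left out it ranged from 0 (edgeR, without wild-type replicate 2 or 3) to 4. The number of genes called was 234 with the replicate block, 171 with the library total as a covariate, 553 without a fold change threshold and 10 with glmTreat, and it ranged from 6 to 625 with each library left out, the lowest without wild-type replicate 3. The cause of these differences was not tested. DESeq2 called 472 genes and limma-voom 307, and the counts under the other scalings, filters, thinning and the ceiling correction were within 1.5 times the main count. All 10 receptors kept the sign of their log2 fold change in the 16 alternatives fitted. *Ephx2* was called in the 15 alternatives in which it could be tested (it fell below 10 counts per library in the other), with values from −4.53 to −3.79. RLE factors shifted the median of all log2 fold changes by 0.0072 and library size alone by −0.021. The deviations of same-numbered libraries from their group means had correlations of −0.22, −0.46 and −0.063, and those of the other pairs ranged from −0.090 to 0.33. With 3 libraries per group, these correlations cannot show whether same-numbered libraries share a batch. Under the replicate block *Clec4a2* had an edgeR adjusted p of 0.052. *Clec10a* had the fewest counts of the receptors (mean 48.0). The correction for duplicate removal moved *Clec4n* from −0.077 to −0.18.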
